A study of Mus musculus with 9 samples.

Results

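The genes described here are 40 mouse genes of antioxidant defence, glutathione metabolism and the pentose phosphate pathway, out of 55536 genes in the count table. They were chosen as NRF2-linked genes of thioredoxin, peroxiredoxin, glutathione, superoxide and NADPH metabolism, leaving out heme and iron genes, and were found by symbol in GENCODE M21. All 40 were in the table, and all 40 were among the 13815 genes that passed a filter on low counts. RNA-seq was done on 9 libraries of bone marrow-derived macrophages (BMDM) from wild-type mice. In 3 libraries the cells had received exosomes, small secreted vesicles, from BMDM of ApoE-deficient mice (EKO exosomes). In another 3 they had received exosomes from wild-type BMDM (WT exosomes), and in the last 3 they had received PBS. Every group was grown from the marrow of male mice aged 6 to 12 weeks, was differentiated with M-CSF at 25 ng/mL over 6 days, and was treated for 18 hours. Both exosome preparations were given at 2e+09 particles/mL, and the recipient cells were wild-type in every group. The sources used here do not say whether the 3 libraries of a group came from separate mice or separate exosome preparations, so p-values reflect no more than the spread among these 9 libraries.

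NRF2, encoded by Nfe2l2, is a transcription factor that KEAP1 holds in the cytosol and marks for degradation. When oxidants or electrophiles modify KEAP1, NRF2 enters the nucleus and binds antioxidant response elements near genes that make, recycle and use glutathione and thioredoxin. Peroxiredoxins and catalase remove hydrogen peroxide, thioredoxin and glutathione keep protein thiols reduced, and both systems draw on NADPH, which the oxidative pentose phosphate pathway supplies. Macrophages also spend NADPH on making oxidants during the respiratory burst.

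The antioxidant response element has the core TGACNNNGC, where N is any base. Promoter windows of 300 bases, running from 250 bases before to 50 bases after a transcription start, were taken from RefSeq (GRCm38.p6) for 36 of the 40 genes. The windows of Abcc1, Gsr, Prdx6 and Gclc were not used here. The core, searched on both strands, stood in a window of 12 of the 36 genes, which is 33.3%, against 17.1% of the 9971 genes past the filter with a window and 14.0% of all 27025 genes of the promoter table. Of the 11 genes with a window that passed the expression test in at least 1 comparison, 6 held the core, and of the 25 that passed in none, 6 held it. The first 6 include Pgd, Txnrd1 and G6pdx, whose window with the core lies at a start inside the gene, as given below. These are descriptions of letters, and a match does not show binding. The matches of the 6 genes that passed are shown with 10 bases on either side, 5′ to 3′ on the strand that carries the core, which is in capitals, so that the letters can be read beside the expression values given further on.

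Prdx1, chr4:116685456-116685484, minus strand: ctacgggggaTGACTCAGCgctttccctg
Txnrd1, chr10:82859104-82859132, minus strand: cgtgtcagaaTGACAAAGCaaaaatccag
Gclm, chr3:122245413-122245441, minus strand: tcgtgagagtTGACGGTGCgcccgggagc
G6pdx, chrX:74428919-74428947, plus strand: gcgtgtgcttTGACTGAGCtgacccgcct
Pgd, chr4:149166061-149166089, minus strand: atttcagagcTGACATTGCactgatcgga
Srxn1, chr2:152105542-152105570, minus strand: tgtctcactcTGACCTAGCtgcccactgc

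The first base of the match in gene direction lay at position -133 from the start in Prdx1, -92 in Txnrd1, -134 in Gclm and -57 in G6pdx. It lay downstream of the start, at 4 in Pgd and 29 in Srxn1. The Pgd start used here lies inside the gene, whose 5′ end in GENCODE M21 is at chr4:149166771. The Pgd match therefore does not stand in a window at the 5′ end of the gene. Txnrd1 had 3 windows, from alternative starts, and 1 of them held the core. That window and the G6pdx window also lie inside their genes. In GENCODE M21 the 5′ end is at chr10:82833951 for Txnrd1 and at chrX:74429194 for G6pdx, so neither match stands in a window at the 5′ end. The Prdx1 match holds TGACTCA, the letters bound by AP-1 factors, which overlap the antioxidant response element. The same 9 letters stood in the window of Me1, which passed the expression test in no comparison, as the following line shows.

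Me1, chr9:86695902-86695930, minus strand: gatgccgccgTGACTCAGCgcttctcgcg

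A longer stretch of the window with the match is given for Prdx1 and Txnrd1, which held their call between the exosomes under every alternative tried. It runs from position -180 to -61 on the plus strand, in gene direction, so the capitals mark the reverse complement of the core.

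Prdx1, chr4:116685419-116685538: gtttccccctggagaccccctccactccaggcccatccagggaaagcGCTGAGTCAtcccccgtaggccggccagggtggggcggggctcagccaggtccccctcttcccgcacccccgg
Txnrd1, chr10:82859026-82859145: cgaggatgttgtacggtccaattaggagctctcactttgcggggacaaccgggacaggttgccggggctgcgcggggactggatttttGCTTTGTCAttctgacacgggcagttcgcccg

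Each library held 28581306 to 35929596 counts, and levels are given as CPM, counts scaled to a common library size with TMM factors. On the first principal component of all genes tested, with 15.2% of the variance, replicate 3 of WT exosomes stood at 57.5, against -16.8 to 3.43 in the other 8 libraries. On the second, with 15.1%, replicate 2 of EKO exosomes stood at 38 and replicate 2 of WT exosomes at -45.4. Macrophage markers, a list of 10 genes that includes Csf1r, Adgre1 and Lyz2, summed to 21050 to 22040 CPM in EKO exosomes, 21290 to 21960 in WT exosomes and 22980 to 24210 in PBS. At an edgeR adjusted p under 0.05, 7 of the 10 were lower in EKO exosomes than in PBS, where 2.41% of all genes tested were lower. In WT exosomes 6 were lower than in PBS and Cd68 was higher, where 2.18% of all genes tested were lower and 1.93% higher. Fcgr1 was lower in EKO than in WT exosomes, where 0.413% of all genes tested were lower. Neutrophil markers summed to 11.3 to 17.8 CPM in EKO exosomes, 15.9 to 26.9 in WT exosomes and 20.1 to 30.8 in PBS. Stromal and endothelial markers summed to 6.46 to 25.1, 17.5 to 30.5 and 10.3 to 64.8 CPM in the same order of groups. Dendritic cell markers stayed at or under 1.15 CPM in sum, T, NK and B cell markers at or under 6.74, mast cell and basophil markers at or under 3.49, and erythroid and megakaryocyte markers at or under 8.88. Cd8a, Cd79a, Mcpt8, Fcer1a, Ms4a2, Hbb-bs and Hba-a1 were at 0 in all 9 libraries. The part of these markers in the results that follow was not tested. In bulk RNA, fewer cells of a type and less RNA per cell cannot be told apart.

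Together the 40 genes took 1.00% to 1.16% of a library's counts. Their summed level was 11217 to 11654 CPM in EKO exosomes, 10087 to 10566 in WT exosomes and 10792 to 11531 in PBS, so every WT exosome library lay below the other 6. Per kilobase of exon length, which allows genes to be compared, levels averaged over 9 libraries spanned from 627 CPM per kb for Cat, the catalase gene, to 0.379 for Ggct, gamma-glutamylcyclotransferase. After Cat came Akr1a1, an aldo-keto reductase, at 402 CPM per kb, Sqstm1 at 273, Taldo1 at 259 and Prdx1 at 195. At the low end stood Me1 at 3.22 CPM per kb, Nqo1, a classic NRF2 target, at 3.05, Gss at 1.94 and Rpia at 1.75. The coefficient of variation of a gene's CPM within a group had a median over the 40 genes of 4.04% in EKO exosomes, 3.88% in WT exosomes and 4.66% in PBS.

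**Figure D1:**
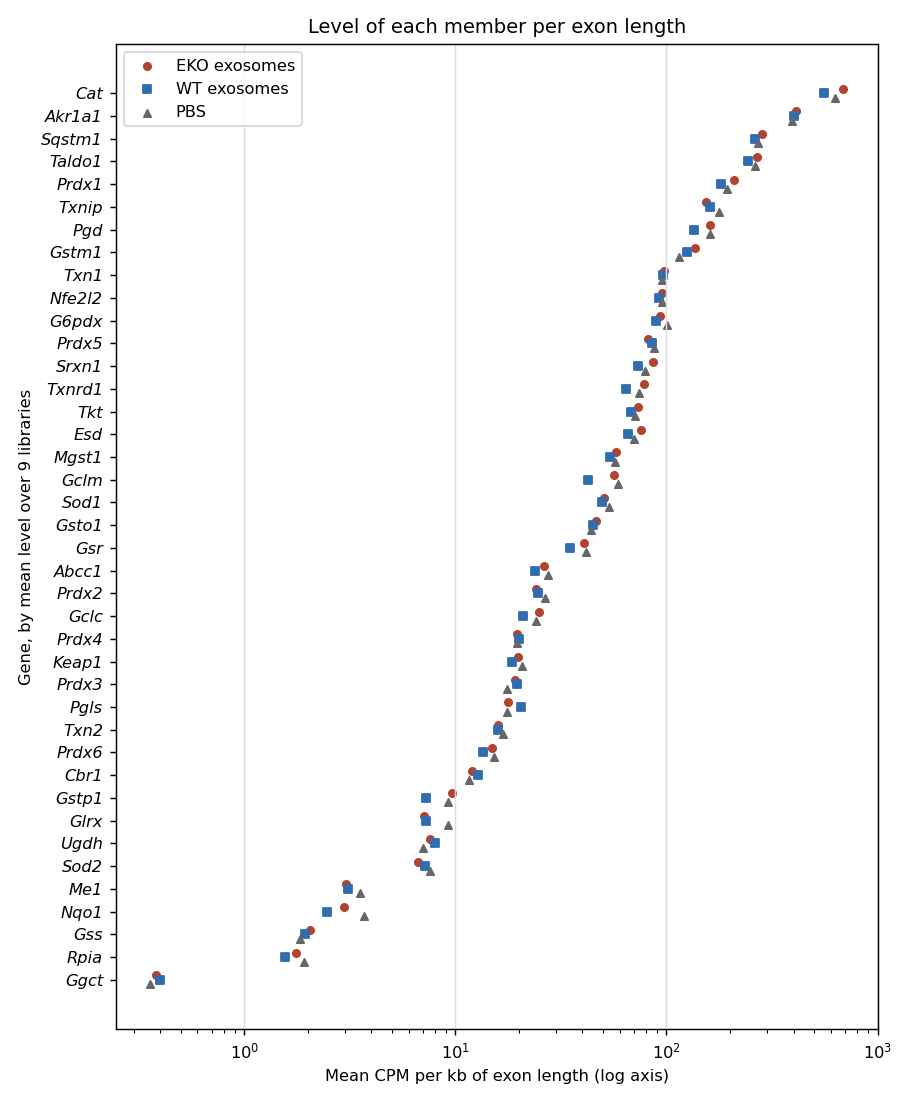
Mean CPM per kb of exon length (log axis) of each of the 40 genes in EKO exosomes, WT exosomes and PBS, ordered by the mean over 9 libraries. Levels run from 0.379 for Ggct to 627 for Cat, and for most genes the 3 groups lie close together on this scale.

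EKO against WT exosomes compared vesicles from donors with and without ApoE. Of the 40 genes, 7 were higher in EKO exosomes and 0 were lower at an edgeR adjusted p under 0.05. They were Txnrd1, Srxn1, Prdx1, Gclc, Pgd, Taldo1 and Esd, at log2 fold changes of 0.14 (Taldo1) to 0.28 (Txnrd1). The 7 are 17.5% of the set, where 0.282% of all genes tested were higher and 0.413% lower, and they make up 17.9% of the 39 genes that were higher. At an unadjusted p under 0.05, 16 of the 40 were higher and 1 lower, where 4.11% of all genes tested were higher and 4.04% lower. DESeq2 and limma-voom each called 11 of the 40 higher and 0 lower, where DESeq2 called 0.688% higher and 1.11% lower of the 8726 genes it gave an adjusted p, and limma-voom called 0.405% and 0.499% of all genes tested. EKO and WT exosome libraries did not overlap for 20 of the 40 genes, against 14.0% of all genes tested. The median log2 fold change was 0.09 for the 40, with 28 positive and 12 negative, against 0 for all genes. Without EKO replicate 1 the number higher was 3, and without WT replicate 3 it was 4. Txnrd1, Prdx1 and Pgd passed under all 13 alternatives.

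WT exosomes against PBS compared vesicles from unmodified donors with the vehicle. Here 9 of the 40 genes were lower in WT exosomes and 0 were higher. The 9 were Txnrd1, Txnip, Gclc, Gclm, Gsr, Glrx, Abcc1, G6pdx and Pgd, with log2 fold changes of -0.15 (Txnip) to -0.48 (Gclm). They are 22.5% of the set, where 2.18% of all genes tested were lower and 1.93% higher. At an unadjusted p under 0.05, 18 of the 40 were lower and 3 higher, where 7.23% of all genes tested were lower and 6.78% higher, so the 3 higher lie near the background. DESeq2 called 11 of the 40 lower and 1 higher, where it called 3.99% lower and 4.0% higher of the 9529 genes it gave an adjusted p. With limma-voom 10 of the 40 were lower and 0 higher, where 2.19% of all genes tested were lower and 1.97% higher. Libraries did not overlap for 19 of the 40, 47.5%, against 17.5% of all genes tested. The median log2 fold change was -0.10 for the 40, with 11 positive and 29 negative, against -0.003 for all genes. Without WT replicate 3, and again without PBS replicate 1, the number lower was 5, and Txnrd1, Txnip, Abcc1 and Pgd passed under all 13 alternatives.

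EKO exosomes against PBS compared the ApoE-deficient vesicles with the vehicle, and 3 of the 40 genes passed. Gstm1 was higher, and Txnip and Glrx were lower. The 1 higher and 2 lower genes are 2.5% and 5.0% of the set, where 1.82% of all genes tested were higher and 2.41% lower. At an unadjusted p under 0.05, 7 of the 40 were higher and 5 lower, where 6.51% of all genes tested were higher and 6.56% lower. DESeq2 called the same 3 genes, where it called 2.85% higher and 3.54% lower of the 11136 genes it gave an adjusted p. With limma-voom Prdx1 and Cat were higher beside them, where 1.95% of all genes tested were higher and 2.56% lower. Libraries did not overlap for 11 of the 40, 27.5%, against 18.3% of all genes tested. Among the 4368 more abundant genes described below, the share was 27.7%, so the 11 lie near that background. The median log2 fold change was 0.02, with 21 positive and 19 negative, against -0.001 for all genes. All 3 calls held under all 13 alternatives. The number higher was 3 without PBS replicate 1 and 2 without EKO replicate 2.

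The 3 comparisons share groups of libraries, so they are not independent of each other. An F test for any difference among the 3 groups passed for 15 of the 40 genes, 37.5%, against 5.28% of all genes tested. The 15 were the 14 genes that passed in at least 1 pairwise comparison and Sqstm1. The 40 genes were more abundant than most, with a median of 104 CPM against 18.0 for genes tested, and abundant genes pass the test more often. A level of 43.1 CPM was set after the data were seen, at the mean of Glrx, the least abundant of the 14 genes. It keeps every gene of the set that passed a pairwise test and leaves out only others. Shares of the set that passed could therefore only rise, and the contrast at this level is not an even one. Among the 4368 genes with at least 43.1 CPM, 0.710% were higher and 1.05% lower in EKO than in WT exosomes. Of the 31 set genes at that level, 22.6% were higher. In the same 4368 genes, 5.08% were lower and 5.11% higher in WT exosomes than in PBS, and 29.0% of the 31 were lower. For EKO exosomes against PBS, 5.06% of the 4368 were higher and 5.52% lower, against 3.23% and 6.45% of the 31. Libraries of EKO exosomes and PBS did not overlap for 27.7% of the 4368 and 32.3% of the 31. For WT exosomes and PBS these shares were 27.3% and 51.6%, and for EKO and WT exosomes 18.7% and 61.3%.

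**Figure D2:**
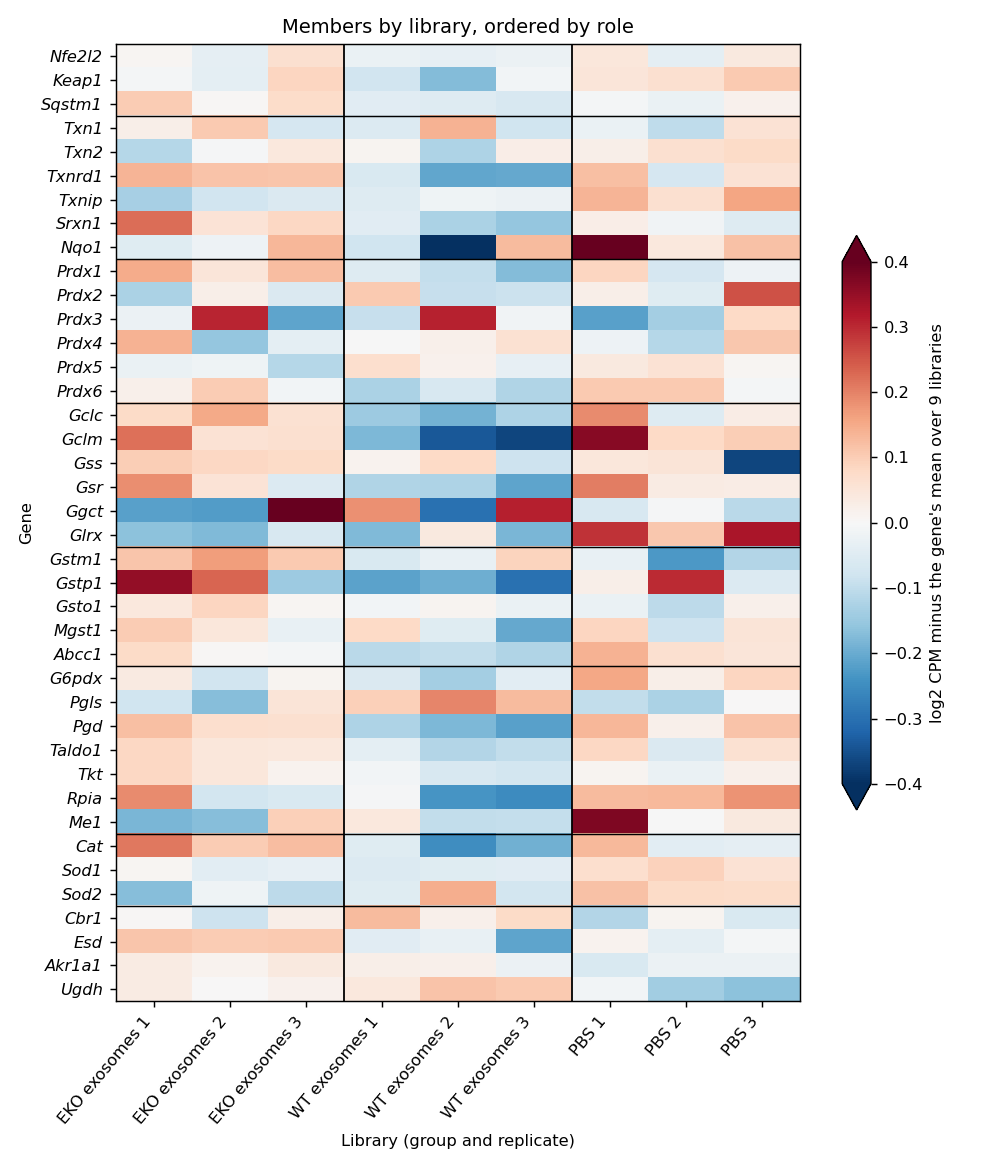
Log2 CPM of each gene minus its mean over 9 libraries, with libraries in columns (EKO exosomes, WT exosomes, PBS) and the 40 genes in lines grouped by role; the colour scale ends at -0.4 and 0.4. Mean deviations over the 40 genes are -0.03, -0.09 and -0.08 in the WT exosome libraries, against 0.02 to 0.04 in EKO exosomes and -0.004 to 0.08 in PBS, where replicate 1 is the highest of the 9.

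Among the 3 regulators none passed a pairwise test in edgeR over all 9 libraries. Nfe2l2 itself averaged 362 ± 12.5 CPM in EKO exosomes, 352 ± 0.98 in WT exosomes and 362 ± 11.7 in PBS (SD, n = 3 each). The 95% interval of its log2 fold change between EKO and WT exosomes was -0.03 to 0.11. Keap1, its repressor, averaged 93.2 ± 4.23, 86.9 ± 4.90 and 97.0 ± 1.98 CPM in the same order. Sqstm1, the autophagy receptor p62 that binds KEAP1, had 984, 920 and 964 CPM in EKO exosomes, 888, 885 and 877 in WT exosomes and 911, 899 and 927 in PBS. All 3 EKO libraries lay above all 3 WT exosome libraries, but the log2 difference, 0.11 ± 0.030 (SE), did not pass (edgeR adjusted p = 0.0662), while the F test over the groups passed (edgeR adjusted p = 0.0404). DESeq2 and limma-voom called Sqstm1 higher in EKO than in WT exosomes, as did edgeR on those 6 libraries alone.

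In the thioredoxin system, 2 of 6 genes were higher in EKO than in WT exosomes, 2 were lower in WT exosomes than in PBS, and 1 was lower in EKO exosomes than in PBS. Txnrd1 (ENSMUSG00000020250, chr10:82833951-82897712, plus strand in GRCm38) encodes cytosolic thioredoxin reductase, which spends NADPH to reduce thioredoxin. It had 562, 553 and 552 CPM in EKO exosomes, 489, 442 and 443 in WT exosomes and 555, 487 and 531 in PBS. The EKO libraries all exceeded the WT exosome libraries, and PBS replicate 2 fell just under the highest WT exosome library. The Txnrd1 log2 fold change was 0.28 ± 0.040 for EKO against WT exosomes (edgeR adjusted p = 3.48e-05) and -0.20 ± 0.040 for WT exosomes against PBS (edgeR adjusted p = 0.00131). For EKO exosomes against PBS it was 0.08, which did not pass (edgeR adjusted p = 0.354).

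Srxn1 (ENSMUSG00000032802), sulfiredoxin, repairs over-oxidised peroxiredoxins. Its level was 262, 233 and 237 CPM in EKO exosomes, 217, 205 and 201 in WT exosomes and 228, 222 and 216 in PBS. The EKO libraries lay above those of both other groups, which overlapped each other. Srxn1 was higher in EKO than in WT exosomes by 0.23 ± 0.044 on the log2 scale (edgeR adjusted p = 0.00253). Without EKO replicate 1 the difference was 0.17 and did not pass (edgeR adjusted p = 0.119), the only one of 13 alternatives in which the call was lost. Against PBS it was 0.14 for EKO exosomes (edgeR adjusted p = 0.0801) and -0.10 for WT exosomes (edgeR adjusted p = 0.295).

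Txnip (ENSMUSG00000038393), the thioredoxin-interacting protein that inhibits thioredoxin and limits glucose uptake, had 468, 487 and 493 CPM in EKO exosomes, 495, 506 and 505 in WT exosomes and 563, 536 and 572 in PBS. Every exosome library lay below every PBS library. The Txnip log2 fold change was -0.21 ± 0.033 for EKO exosomes against PBS (edgeR adjusted p = 3.44e-05) and -0.15 ± 0.033 for WT exosomes against PBS (edgeR adjusted p = 0.00336). Between EKO and WT exosomes it was -0.06 (edgeR adjusted p = 0.714; 95% interval -0.12 to 0.01). Exons of the antisense gene Gm15441 cover 19.4% of the Txnip exon length, and that gene had 0.867 to 3.39 CPM in EKO exosomes, 1.01 to 2.29 in WT exosomes and 1.84 to 2.73 in PBS.

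The other 3 genes of this group passed in no comparison. Txn1, cytosolic thioredoxin, had 103, 109 and 96.7 CPM in EKO exosomes, 97.6, 112 and 95.9 in WT exosomes and 99.5, 94.4 and 106 in PBS, with all groups overlapping. Txn2, the mitochondrial thioredoxin, averaged 67.3 ± 3.74, 67.1 ± 3.78 and 71.1 ± 1.36 CPM in the same order. Nqo1, a quinone reductase, was scarce, at 4.39, 4.47 and 4.98 CPM in EKO exosomes, 4.30, 2.23 and 4.96 in WT exosomes and 7.66, 4.68 and 4.93 in PBS. Its 95% interval for EKO against WT exosomes, -0.27 to 0.81 on the log2 scale, is wide.

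**Figure D3:**
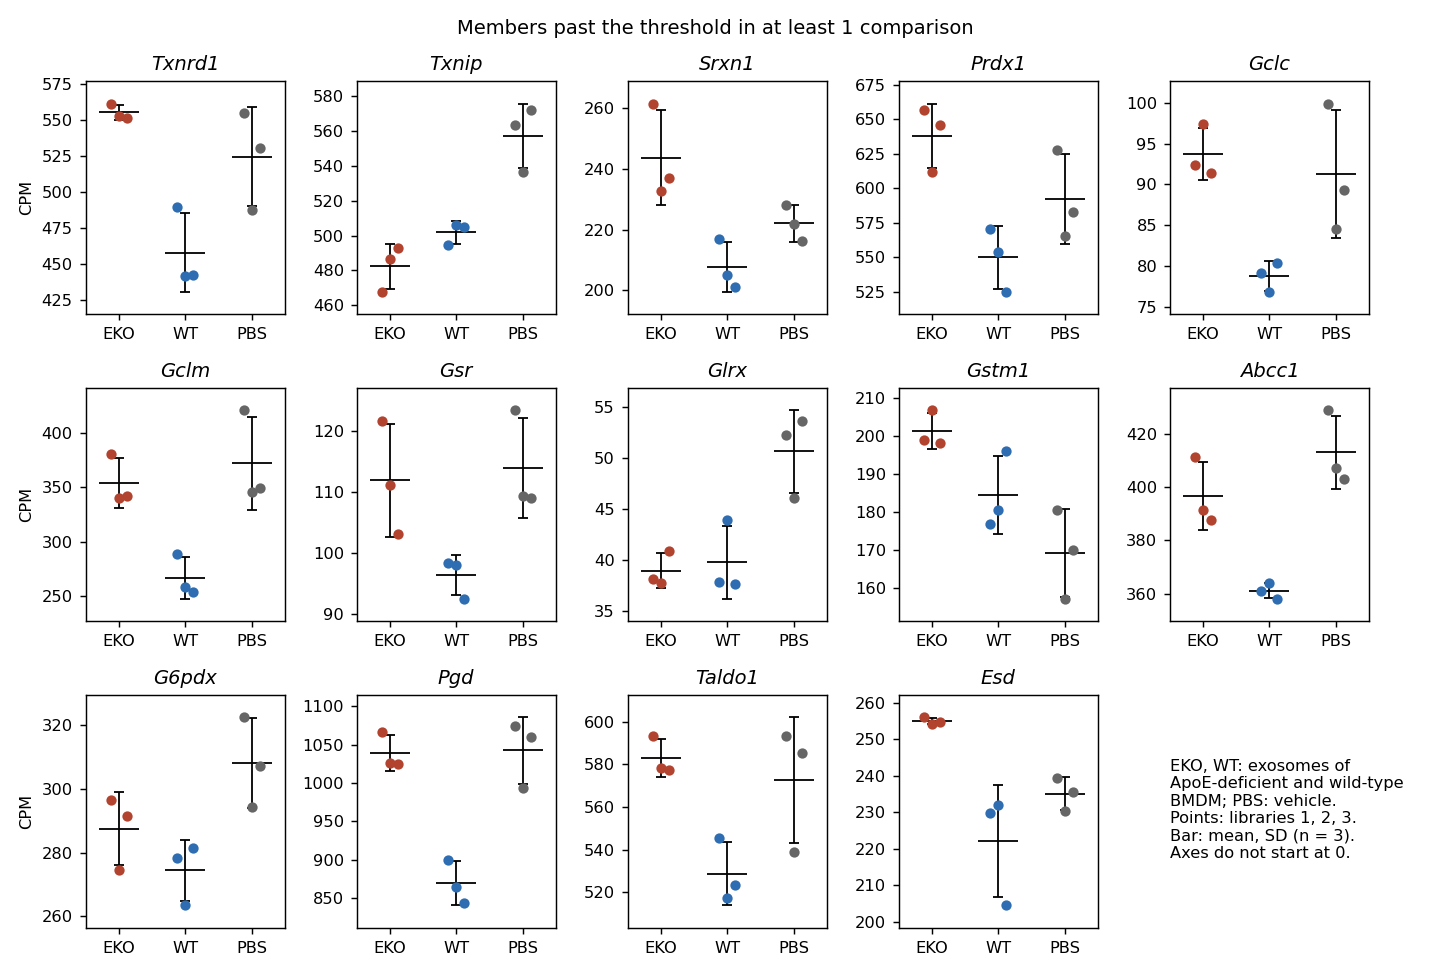
CPM in every library (points, replicates 1 to 3 from left to right) with the mean and SD (bars, n = 3) for the 14 genes that passed in at least 1 comparison; axes do not start at 0. For Txnrd1, Pgd, Gclm and Gclc the WT exosome libraries lie below the EKO libraries, and for Txnip and Glrx both exosome groups lie below PBS.

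Of the 6 peroxiredoxins, Prdx1 was the only gene that passed a test, in EKO against WT exosomes. Prdx1 (ENSMUSG00000028691, chr4:116685544-116700822, plus strand) is the abundant cytosolic peroxidase that thioredoxin recharges. Its level was 657, 612 and 646 CPM in EKO exosomes, 571, 554 and 525 in WT exosomes and 628, 566 and 583 in PBS. EKO and WT exosome libraries did not overlap, while PBS overlapped both. The Prdx1 log2 fold change was 0.21 ± 0.037 for EKO against WT exosomes (edgeR adjusted p = 0.000749). It was 0.11 for EKO exosomes against PBS (edgeR adjusted p = 0.105) and -0.11 for WT exosomes against PBS (edgeR adjusted p = 0.107).

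The remaining peroxiredoxins showed no call. Prdx6, which uses glutathione rather than thioredoxin, had 70.8, 74.9 and 69.3 CPM in EKO exosomes, 64.0, 66.8 and 64.4 in WT exosomes and 75.2, 75.2 and 69.6 in PBS. Its WT exosome libraries were the 3 lowest, yet the log2 fold change of -0.17 against PBS did not pass (edgeR adjusted p = 0.141). Prdx5, found in mitochondria and peroxisomes, had 178, 179 and 168 CPM in EKO exosomes, 190, 184 and 178 in WT exosomes and 187, 189 and 183 in PBS. Exons of Trmt112 cover 19.1% of its length. Prdx2, a cytosolic relative of Prdx1, averaged 73.8 ± 3.87 CPM in EKO exosomes, 75.4 ± 5.92 in WT exosomes and 81.0 ± 9.14 in PBS. Exons of Junb and Rnaseh2a, on the other strand, cover 11.5% of its length. Junb had 144 to 145 CPM in EKO exosomes, 138 to 150 in WT exosomes and 159 to 179 in PBS, and its part in the Prdx2 counts was not tested. Prdx3, of mitochondria, averaged 28.3 ± 5.20, 29.1 ± 4.41 and 25.9 ± 2.82 CPM, and Prdx4, of the endoplasmic reticulum, 41.2 ± 4.25, 42.3 ± 0.912 and 41.3 ± 3.19 CPM in the same order. The log2 fold changes of these 3 genes lay between -0.14 and 0.16 in all 3 comparisons.

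Glutathione synthesis and recycling held the most genes lower in WT exosomes than in PBS, 4 of 6. The rate-limiting enzyme of glutathione synthesis, glutamate-cysteine ligase, is a pair of a catalytic subunit, Gclc, and a modifier subunit, Gclm. Gclm (ENSMUSG00000028124) had 381, 340 and 342 CPM in EKO exosomes, 288, 258 and 253 in WT exosomes and 421, 345 and 350 in PBS. All WT exosome libraries lay below the other 6, and the fitted level was 28.3% lower than in PBS. The Gclm log2 fold change was -0.48 ± 0.093 for WT exosomes against PBS (edgeR adjusted p = 0.0328), lost without WT replicate 2, WT replicate 3 or PBS replicate 3, at edgeR adjusted p values of 0.0571 to 0.14. For EKO against WT exosomes it was 0.41 ± 0.093, the largest of the 40, but did not pass (edgeR adjusted p = 0.179), whereas DESeq2 and limma-voom called it. For EKO exosomes against PBS it was -0.07 (edgeR adjusted p = 0.874).

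Gclc (ENSMUSG00000032350) had 92.4, 97.4 and 91.5 CPM in EKO exosomes, 79.1, 76.8 and 80.3 in WT exosomes and 99.9, 84.5 and 89.3 in PBS. The WT exosome libraries were again the 3 lowest. The Gclc log2 fold change was 0.25 ± 0.061 for EKO against WT exosomes (edgeR adjusted p = 0.0345) and -0.21 ± 0.061 for WT exosomes against PBS (edgeR adjusted p = 0.0362). The first call was lost when any 1 of the 6 libraries was left out, at edgeR adjusted p values of 0.0678 to 0.268. The second was lost in 6 of 13 alternatives: limma-voom (0.0541), the 6 libraries alone (0.072), and without WT replicate 1 (0.0841), WT replicate 2 (0.146), WT replicate 3 (0.0706) or PBS replicate 1 (0.331), all adjusted p values.

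Gsr (ENSMUSG00000031584), glutathione reductase, returns oxidised glutathione to its reduced form with NADPH. It had 122, 111 and 103 CPM in EKO exosomes, 98.4, 98.1 and 92.5 in WT exosomes and 123, 109 and 109 in PBS. The WT exosome libraries were the 3 lowest, and the other 2 groups overlapped. The Gsr log2 fold change was -0.24 ± 0.059 for WT exosomes against PBS (edgeR adjusted p = 0.0106). It did not pass without WT replicate 3 (edgeR adjusted p = 0.079) or PBS replicate 1 (edgeR adjusted p = 0.138). For EKO against WT exosomes it was 0.22 ± 0.059 (edgeR adjusted p = 0.0879).

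Glrx (ENSMUSG00000021591), glutaredoxin, removes glutathione from protein thiols. It had 38.2, 37.8 and 40.9 CPM in EKO exosomes, 37.8, 43.9 and 37.7 in WT exosomes and 52.2, 46.1 and 53.6 in PBS. All 6 exosome libraries lay below all 3 PBS libraries. The Glrx log2 fold change was -0.38 ± 0.084 for EKO exosomes against PBS (edgeR adjusted p = 0.00357) and -0.35 ± 0.084 for WT exosomes against PBS (edgeR adjusted p = 0.00942). The call for WT exosomes was lost without WT replicate 1 or 3 or PBS replicate 1 or 3, at edgeR adjusted p values of 0.0533 to 0.0695. Between EKO and WT exosomes the log2 difference was -0.03 (95% interval -0.20 to 0.14).

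Gss, which completes glutathione, and Ggct were scarce and passed in no comparison. Gss had 12.2, 12.1 and 12.0 CPM in EKO exosomes, 11.5, 12.1 and 10.8 in WT exosomes and 11.8, 11.8 and 8.84 in PBS. Ggct averaged 2.95 ± 0.805, 3.08 ± 0.644 and 2.78 ± 0.0988 CPM in EKO exosomes, WT exosomes and PBS.

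Among the 5 genes of glutathione transfer and export, 1 was higher in EKO exosomes than in PBS and 1 was lower in WT exosomes than in PBS. Gstm1 (ENSMUSG00000058135), a mu-class glutathione S-transferase, had 199, 207 and 198 CPM in EKO exosomes, 177, 181 and 196 in WT exosomes and 181, 157 and 170 in PBS. The EKO libraries lay above those of both other groups. The Gstm1 log2 fold change was 0.25 ± 0.048 for EKO exosomes against PBS (edgeR adjusted p = 0.000544), 0.13 for WT exosomes against PBS (edgeR adjusted p = 0.165) and 0.13 for EKO against WT exosomes (edgeR adjusted p = 0.363). The mu-class genes are close copies of each other, so reads may be shared among them and the level of Gstm1 is uncertain to that extent.

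Abcc1 (ENSMUSG00000023088), the transporter MRP1 that exports glutathione conjugates and leukotriene C4, had 411, 391 and 388 CPM in EKO exosomes, 361, 364 and 358 in WT exosomes and 429, 407 and 403 in PBS. The WT exosome libraries lay close together and below the other 6. The Abcc1 log2 fold change was -0.19 ± 0.035 for WT exosomes against PBS (edgeR adjusted p = 0.000332) and 0.14 ± 0.035 for EKO against WT exosomes (edgeR adjusted p = 0.0614). DESeq2, limma-voom and edgeR on the 6 exosome libraries alone called this second difference. For EKO exosomes against PBS it was -0.06 (edgeR adjusted p = 0.533).

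The other transferases passed in no comparison. Gstp1, a pi-class enzyme with close copies, had 17.0, 15.6 and 12.0 CPM in EKO exosomes, 11.5, 11.6 and 10.8 in WT exosomes and 13.5, 16.4 and 12.8 in PBS, with WT exosomes lowest (log2 fold change 0.40 for EKO against WT exosomes, edgeR adjusted p = 0.349). Mgst1, a membrane-bound transferase, had 121, 117 and 111 CPM in EKO exosomes, 120, 109 and 98.3 in WT exosomes and 120, 107 and 117 in PBS. Gsto1, an omega-class transferase, averaged 94.3 ± 2.62, 90.8 ± 1.20 and 89.1 ± 3.89 CPM in the same order of groups.

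In the pentose phosphate group, 2 of 7 genes were higher in EKO than in WT exosomes and 2 were lower in WT exosomes than in PBS, and none passed for EKO exosomes against PBS. Pgd (ENSMUSG00000028961, chr4:149149991-149166771, minus strand) encodes 6-phosphogluconate dehydrogenase, the second enzyme of the pathway to yield NADPH. It had 1066, 1026 and 1025 CPM in EKO exosomes, 900, 865 and 843 in WT exosomes and 1074, 993 and 1060 in PBS. The WT exosome libraries stood well below the other 6, which overlapped. The Pgd log2 fold change was 0.26 ± 0.032 for EKO against WT exosomes (edgeR adjusted p = 3.61e-06) and -0.26 ± 0.032 for WT exosomes against PBS (edgeR adjusted p = 5.59e-07). For EKO exosomes against PBS it was -0.01, with a 95% interval of -0.07 to 0.06.

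G6pdx (ENSMUSG00000031400), glucose-6-phosphate dehydrogenase, commits glucose to the pathway. It had 297, 275 and 292 CPM in EKO exosomes, 278, 263 and 282 in WT exosomes and 323, 295 and 307 in PBS. WT exosome libraries lay below the PBS libraries and overlapped with EKO exosomes. The G6pdx log2 fold change was -0.17 ± 0.040 for WT exosomes against PBS (edgeR adjusted p = 0.00848), lost without WT replicate 2 (edgeR adjusted p = 0.0961) or PBS replicate 1 (edgeR adjusted p = 0.103). For EKO exosomes against PBS it was -0.10 (edgeR adjusted p = 0.218) and for EKO against WT exosomes 0.07 (edgeR adjusted p = 0.72). Exons of Ikbkg on the opposite strand cover 13.6% of the G6pdx exon length. Ikbkg had 136 to 140 CPM in EKO exosomes, 128 to 135 in WT exosomes and 121 to 127 in PBS, higher in both exosome groups than in PBS where G6pdx was not, and its part in the G6pdx counts was not tested.

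Taldo1 (ENSMUSG00000025503), transaldolase, belongs to the non-oxidative arm that returns pentoses to glycolysis. It had 593, 578 and 578 CPM in EKO exosomes, 546, 518 and 523 in WT exosomes and 594, 539 and 585 in PBS. EKO and WT exosome libraries did not overlap. The Taldo1 log2 fold change was 0.14 ± 0.035 for EKO against WT exosomes (edgeR adjusted p = 0.0397). It was lost without EKO replicate 1, 2 or 3 or WT replicate 2 or 3, at edgeR adjusted p values of 0.0931 to 0.307. For WT exosomes against PBS it was -0.11 (edgeR adjusted p = 0.0513).

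Tkt, transketolase, had 549, 536 and 524 CPM in EKO exosomes, 515, 497 and 493 in WT exosomes and 523, 509 and 526 in PBS, with no overlap of EKO and WT exosomes but no call (log2 fold change 0.10, edgeR adjusted p = 0.237). Pgls, the lactonase between G6pdx and Pgd, had 66.1, 62.1 and 72.4 CPM in EKO exosomes, 74.5, 80.0 and 76.2 in WT exosomes and 65.2, 63.9 and 69.9 in PBS, so the WT exosome libraries were the 3 highest. Its log2 fold change was 0.21 ± 0.067 for WT exosomes against PBS (edgeR adjusted p = 0.0655) and -0.20 ± 0.067 for EKO against WT exosomes (edgeR adjusted p = 0.245). Exons of Fam129c cover 20.6% of Pgls. Rpia, the ribose-5-phosphate isomerase, averaged 9.46 ± 0.997, 8.32 ± 0.819 and 10.3 ± 0.212 CPM in EKO exosomes, WT exosomes and PBS. Me1, the malic enzyme that also yields NADPH, averaged 11.6 ± 1.31, 11.9 ± 0.675 and 13.6 ± 2.01 CPM.

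None of the 3 genes of superoxide and peroxide removal passed. Cat had 1886, 1746 and 1774 CPM in EKO exosomes, 1574, 1371 and 1426 in WT exosomes and 1783, 1583 and 1589 in PBS. The WT exosome libraries were the 3 lowest. The log2 fold change of 0.31 ± 0.064 for EKO against WT exosomes did not pass (edgeR adjusted p = 0.118), whereas DESeq2 and limma-voom called it. Sod1, the cytosolic superoxide dismutase, averaged 200 ± 3.52 CPM in EKO exosomes, 196 ± 0.464 in WT exosomes and 213 ± 2.58 in PBS. Sod2, its mitochondrial counterpart and an NF-kB target, averaged 66.5 ± 3.57, 71.6 ± 6.07 and 75.6 ± 1.26 CPM.

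Of the 4 carbonyl and sugar-acid enzymes, Esd was higher in EKO than in WT exosomes. Esd (ENSMUSG00000021996), S-formylglutathione hydrolase, frees glutathione in formaldehyde detoxification. It had 256, 254 and 255 CPM in EKO exosomes, 230, 232 and 205 in WT exosomes and 239, 230 and 236 in PBS. The EKO libraries lay close together and above the other 6. The Esd log2 fold change was 0.20 ± 0.042 (edgeR adjusted p = 0.00883). It was 0.14 without WT replicate 3 and did not pass (edgeR adjusted p = 0.191), nor did it pass without EKO replicate 1 (edgeR adjusted p = 0.0728) or EKO replicate 2 (edgeR adjusted p = 0.0553). Against PBS it was 0.12 for EKO exosomes (edgeR adjusted p = 0.132) and -0.08 for WT exosomes (edgeR adjusted p = 0.394).

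Akr1a1, an aldehyde reductase, had 1132, 1116 and 1135 CPM in EKO exosomes, 1125, 1121 and 1089 in WT exosomes and 1061, 1087 and 1088 in PBS, and did not pass. Ugdh, which makes UDP-glucuronate, had 51.9, 50.7 and 51.3 CPM in EKO exosomes, 52.1, 54.8 and 54.6 in WT exosomes and 50.3, 46.0 and 45.3 in PBS. Both exosome groups lay above PBS (log2 fold change 0.12 for EKO exosomes, edgeR adjusted p = 0.53, and 0.19 for WT exosomes, edgeR adjusted p = 0.168). Cbr1, a carbonyl reductase, averaged 30.6 ± 1.17, 32.6 ± 1.20 and 29.8 ± 1.35 CPM in EKO exosomes, WT exosomes and PBS.

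**Figure D4:**
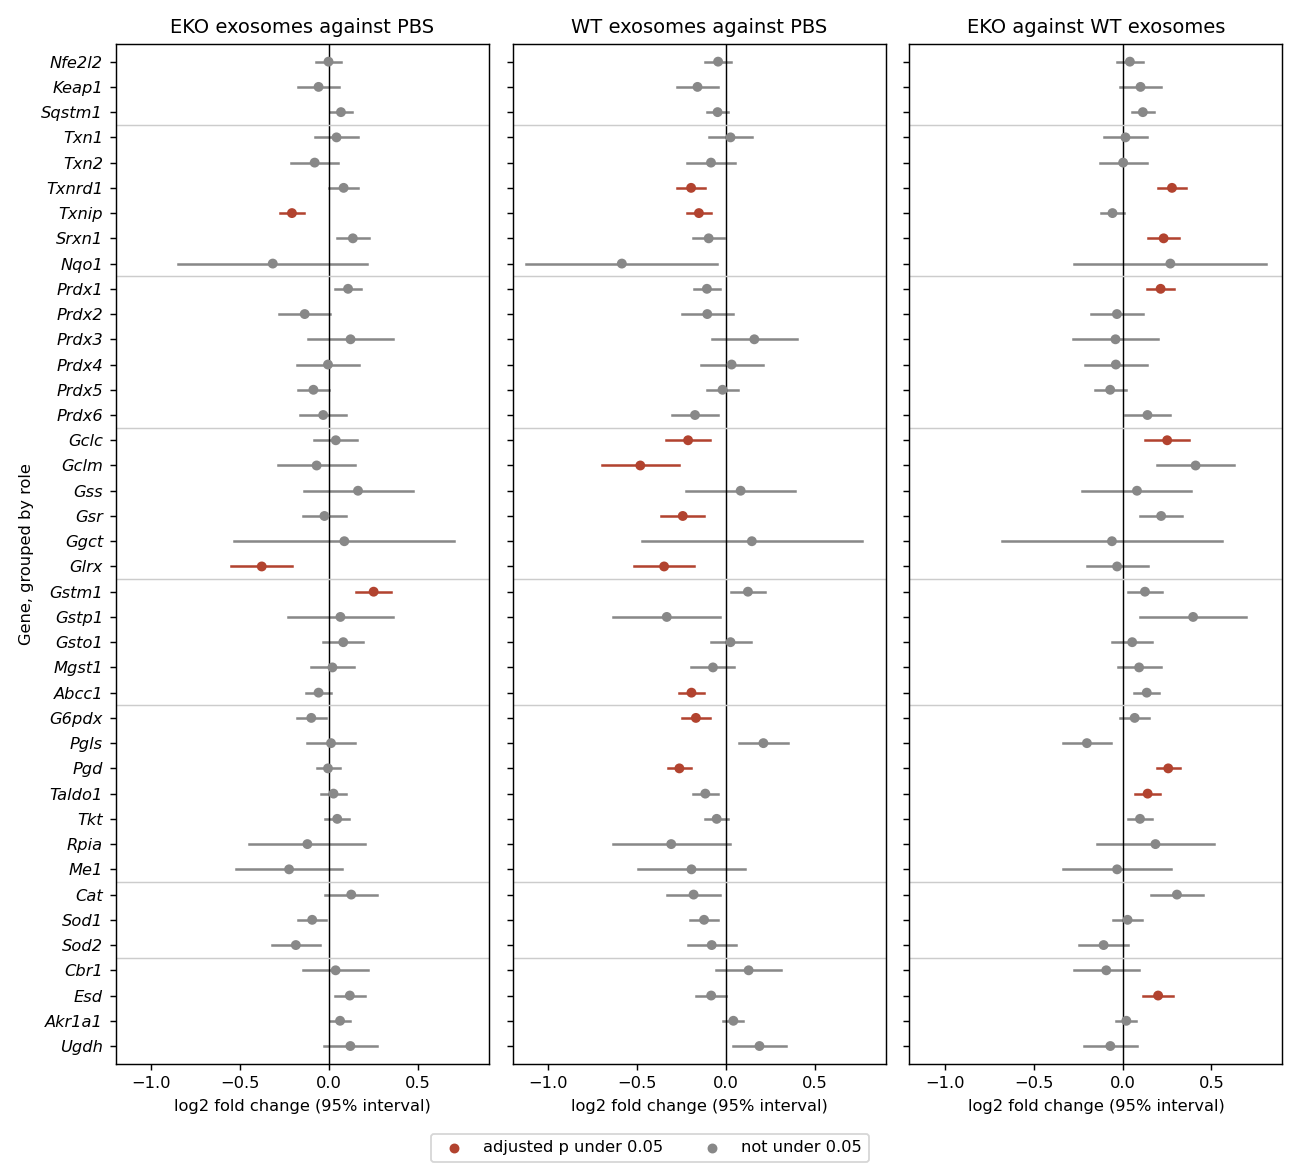
Log2 fold changes of the 40 genes (points) with 95% intervals, not adjusted for the number of genes (lines), for EKO exosomes against PBS, WT exosomes against PBS and EKO against WT exosomes; red marks an edgeR adjusted p under 0.05. In the middle panel 9 genes are red and all lie below 0, and in the right panel 7 are red and all lie above 0.

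By pattern over the 3 comparisons, 3 genes (Txnrd1, Gclc and Pgd) were higher in EKO than in WT exosomes and lower in WT exosomes than in PBS, and did not pass for EKO exosomes against PBS. A further 4 (Gclm, Gsr, Abcc1 and G6pdx) passed for WT exosomes against PBS alone, and 4 (Srxn1, Prdx1, Taldo1 and Esd) for EKO against WT exosomes alone. Txnip and Glrx were lower than in PBS after either kind of exosome, and Gstm1 was higher than in PBS after EKO exosomes alone. The other 26 genes passed in no comparison. All 19 calls lay under 0.5 on the log2 scale.

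Other genes of the same pathways, a list of 69 of which 65 were tested, did not follow a single direction. In EKO against WT exosomes an unadjusted edgeR p under 0.05 gave 9 of the 65 higher and 4 lower, against 4.11% and 4.04% of all genes tested. At an edgeR adjusted p under 0.05, 1 was higher and 3 were lower, where 0.282% of all genes tested were higher and 0.413% lower. Hmox1, the inducible heme oxygenase and NRF2 target, was the higher one, at 979 ± 30.7 CPM in EKO exosomes, 846 ± 35.9 in WT exosomes and 1059 ± 41.6 in PBS, and differed by 0.21 ± 0.033 on the log2 scale between EKO and WT exosomes (edgeR adjusted p = 0.000183). The 3 lower genes encode selenoproteins, as Txnrd1 does. Other selenoprotein genes of the list, Gpx4, Txnrd2, Txnrd3 and Msrb1, did not pass, at log2 fold changes of 0.006 (Msrb1) to 0.094 (Txnrd3). Gpx1, the cytosolic glutathione peroxidase, stood at -0.74 ± 0.035 on the log2 scale (edgeR adjusted p = 1.64e-17). Selenow stood at -1.0 ± 0.086 (edgeR adjusted p = 9.17e-10), and Gpx3, the secreted glutathione peroxidase, had -0.54 ± 0.072 (edgeR adjusted p = 1.32e-05).

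In WT exosomes against PBS, an unadjusted edgeR p under 0.05 gave 6 of the 65 higher and 11 lower, against 6.78% and 7.23% of all genes tested. At an edgeR adjusted p under 0.05, 5 of the 65 were higher and 6 lower, where 1.93% of all genes tested were higher and 2.18% lower. Gpx1 was higher at 561 ± 9.54 CPM in WT exosomes and 393 ± 15.6 in PBS, and so were Selenow, at a log2 fold change of 0.80, and Gpx3, at 0.53. Hmox1 was lower, by -0.32 ± 0.033 on the log2 scale (edgeR adjusted p = 2.79e-08). Blvrb, biliverdin reductase B, had -0.27, H6pd, the endoplasmic reticulum hexose-6-phosphate dehydrogenase, -0.26, Nadk, which makes NADP from NAD, -0.21, and Idh1, a cytosolic source of NADPH, -0.18. In EKO exosomes against PBS, 0 of the 65 were higher and 5 lower, where 1.82% of all genes tested were higher and 2.41% lower. An unadjusted edgeR p under 0.05 gave 4 higher and 9 lower, against 6.51% and 6.56% of all genes tested. DESeq2 called 1 of the 65 higher and 5 lower, where it called 2.85% and 3.54% of the 11136 genes it gave an adjusted p. With limma-voom 1 was higher and 4 were lower, where 1.95% of all genes tested were higher and 2.56% lower. The 5 lower with edgeR were Gpx1, at -0.23 ± 0.035 (edgeR adjusted p = 1.93e-05), Nadk, at -0.26 ± 0.043, Sesn1, a sestrin, at -0.24 ± 0.046, H6pd, at -0.15 ± 0.044, and Hmox1, at -0.11 ± 0.033 (edgeR adjusted p = 0.0447).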

How the data were processed

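The authors deposited a table of raw read counts per Ensembl gene with 1 column for each of 9 libraries. STAR 2.7.5c and the build GRCm38 are named per the submitters' processing notes. The counting tool, annotation and strand setting were not given in the sources used here, so reads of overlapping genes cannot be assigned with certainty. Symbols, exon lengths and exon overlaps came from GENCODE M21.

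Counts were tested with edgeR 4.0.16 (R 4.3.3): filterByExpr at a minimum count of 10, TMM scaling, and a robust quasi-likelihood fit over all 9 libraries with the group as its only term. Benjamini-Hochberg adjustment ran over the 13815 genes that passed the filter, and "adjusted p" means this edgeR value unless another tool is named. A gene passed, or was called higher or lower, when its adjusted p was under 0.05. The biological coefficient of variation was 12%. Standard errors were derived from the F statistics. The steps were tested on simulated data with changes larger than any call given here, which does not show how well changes of the sizes called are found. CPM values are given in the order of replicates 1, 2 and 3. Exact permutation of 3 against 3 libraries reaches p = 0.1 at the lowest and was not used for single genes. Chi-square statistics per gene were 6.87 to 10.4 for pairs of libraries within groups and 7.83 to 18.9 between groups, so no library was taken as a repeat of another.

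The 40 genes, the companion and marker lists, the roles and the tests were chosen with earlier results of these data known. Genes passing in any comparison are given in full, and of the others at most 2 a role, those with the highest level per length and the lowest F test p. Companion genes are named where they passed, at most 8 a comparison by p, and other selenoprotein genes of that list are named for EKO against WT exosomes. The alternatives were DESeq2 1.42.0, limma-voom (limma 3.58.1), RLE and upper-quartile scaling, no filter on low counts, the 6 libraries of a comparison alone, a replicate block, and leaving out each library.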

Additional observations from a re-analysis of the deposited data

How the results depend on the processing

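None of the 19 calls changed direction under any alternative. Values that did not pass and lay near 0 changed sign when a library was left out: for EKO exosomes against PBS the log2 fold change of Gclc ran between -0.011 and 0.109, of Gclm between -0.127 and 0.029, of Gsr between -0.091 and 0.037, of Pgd between -0.036 and 0.018 and of Taldo1 between -0.014 and 0.054, and for EKO against WT exosomes that of Glrx between -0.07 and 0.046. RLE and upper-quartile scaling kept the same 19 calls, with a shift of the median of all genes of at most 0.0029 on the log2 scale. Of the 19, 3 of 3 calls held under every alternative for EKO exosomes against PBS, 4 of 9 for WT exosomes against PBS and 3 of 7 for EKO against WT exosomes. The number of genes of the set higher in EKO exosomes than in PBS was 1, against 3 with limma-voom, 2 with no filter on low counts, and 1 to 3 with a library left out. The number higher in WT exosomes than in PBS was 0, against 1 with DESeq2 (Pgls) and 0 to 1 with a library left out, and the number lower was 9, against 5 to 10 with a library left out. The number higher in EKO than in WT exosomes was 7, against 11 with DESeq2, with limma-voom and with the 6 libraries alone, and 3 to 7 with a library left out. Over all genes tested, 96 passed between the exosomes, against 157 with DESeq2 and 52 to 101 with a library left out, with 52 without EKO replicate 1, 56 without EKO replicate 2 or WT replicate 3 and 59 without WT replicate 2. Leaving out a library also added calls: in EKO against WT exosomes Sqstm1 without EKO replicate 2, Gsr without EKO replicate 3 and Cat without WT replicate 1; in WT exosomes against PBS Taldo1 and Cat without WT replicate 1, Taldo1 without PBS replicate 2 and Pgls without PBS replicate 3; and in EKO exosomes against PBS Srxn1 without EKO replicate 2, and Prdx1 and Cat without PBS replicate 1. The cause of these changes was not tested, beyond there being fewer libraries. Over all genes tested, the correlation of deviations from group means showed no pairing of libraries by replicate number. It was -0.035 to 0.04 between libraries of the same number and -0.048 to 0.039 between others. For the 40 genes, however, replicate 1 had the highest summed level in each group, at 11654 CPM in EKO exosomes, 10566 in WT exosomes and 11531 in PBS. A correlation over all genes cannot show whether these 40 share a pairing, which was not tested. With a replicate block, 4 genes of the set were higher in EKO exosomes than in PBS, 12 were lower in WT exosomes than in PBS and 12 were higher in EKO than in WT exosomes. Calls over all genes rose as well. In the same order of comparisons, and in either direction, 662, 669 and 144 genes passed with the block, against 585, 568 and 96 without it. The 6 widest intervals of the 40 were those of Nqo1, Gss, Rpia, Me1, Gstp1 and Ggct, whose group means were 2.78 to 14.9 CPM, and the part of depth in them was not tested.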
